A study of Danio rerio with 16 samples.

Results

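The 9 genes described here are used to mark, or to direct the growth of, lymphatic vessels: the ligands vegfc and vegfd, the receptor flt4, the transcription factor prox1a, and the surface receptors lyve1a, lyve1b, mrc1a, stab1 and stab2. They were taken by symbol from the 31351 genes of a bulk RNA-seq count table of zebrafish heart ventricles, and all 9 had enough counts to be tested. Ventricles of adult wild-type (WT) fish and of nr4a1 mutant fish were sampled uninjured (0 days post-cryoinjury, dpci) and at 2, 7 and 21 dpci. Cryoinjury freezes the tip of the ventricle with a cold probe and leaves dead tissue that zebrafish replace. The mutants carry the nc40 allele, a small CRISPR/Cas9 insertion in the second exon of nr4a1 that shifts the reading frame and truncates the predicted protein. All cells of a mutant fish carry this allele, so the data cannot assign a difference to one cell type. Each of the 8 conditions had 2 samples. Whether a sample was 1 ventricle or a pool was not given in the sources used here, so the spread between samples may be technical. The p-values set a difference against that spread, which was estimated from all 16 samples and moderated over all genes tested. The common biological coefficient of variation was 3.42%.

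Lymphatic vessels drain fluid and immune cells from tissues. Lymphatic endothelial cells arise mainly from veins: Vegfc, released and then cut into its active form in the tissue, binds the receptor Flt4 (Vegfr3) on these cells, and the transcription factor Prox1 sets and keeps their identity. The adult zebrafish heart has lymphatic vessels on its surface, and they grow after cardiac injury. Few of the genes are limited to these vessels. Prox1 is also made in heart muscle, Mrc1 and Lyve1 in macrophages of mammals, Flt4 in some blood endothelium, and the stabilins in scavenging endothelium and, for Stab1, in macrophages of mammals. A change in whole-ventricle RNA is therefore a change in the gene and not in lymphatic vessels as such, and fewer cells of a type and less RNA per cell cannot be told apart in bulk tissue.

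The samples held between 14333475 and 27668498 counts. Levels are given as CPM, read counts relative to the library total after TMM scaling, values in a condition are those of its 2 samples, and fold changes are log2 values from edgeR, mutant over WT or later over earlier day. CPM is not corrected for transcript length, so levels were not compared between genes. With 2 samples per condition, samples of 2 conditions often do not overlap without a difference. Uninjured vegfc, for example, did not overlap between genotypes at a log2 difference of −0.04. Overlap is therefore given as a description and not as a test, and its share over all genes was not computed. A gene was called when its Benjamini-Hochberg adjusted p over the 18949 genes tested was under 0.05 and its absolute log2 fold change over 0.5. The nr4a1 transcript was counted at 19.4 to 219 CPM in the 8 WT samples and 54.9 to 171 CPM in the 8 mutant samples. Its means at 0, 2, 7 and 21 dpci were 20.7, 86.1, 215.6 and 139 CPM in WT. In mutants they were 55.75, 83.6, 134.6 and 167.7 CPM. A frameshift need not remove a transcript, so this level does not test the genotype labels. Of the 9 genes, 5 (prox1a, mrc1a, stab1, stab2 and vegfc) overlap another gene in the RefSeq annotation of GRCz12tu, a later build than the one counted on. None of these overlapping genes is in the count table, and the strand setting of the counting was not given in the sources used here, so reads of an overlapping transcript could be counted for the 5 genes.

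The 9 genes differed widely in how well they were measured. prox1a and stab1 had at least 701 and 770 counts in every sample. vegfc, vegfd, flt4, mrc1a, lyve1a and stab2 ranged from 22 counts (lyve1a, mutant at 7 dpci) to 404 (stab2, WT at 2 dpci). lyve1b, among the most used lymphatic markers of zebrafish, had only 5 to 21 counts in any sample. The lymphatic label therefore rests mostly on the other genes, few of which are known to be limited to lymphatic vessels. Which heart cells made their transcripts was not tested. The ratio of the highest to the lowest condition mean was 6.57 for vegfc, 4.21 for mrc1a, 4.18 for vegfd, 3.98 for lyve1a, 3.25 for stab2, 2.55 for prox1a, 2.36 for flt4 and 2.15 for stab1.

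**Figure D1:**
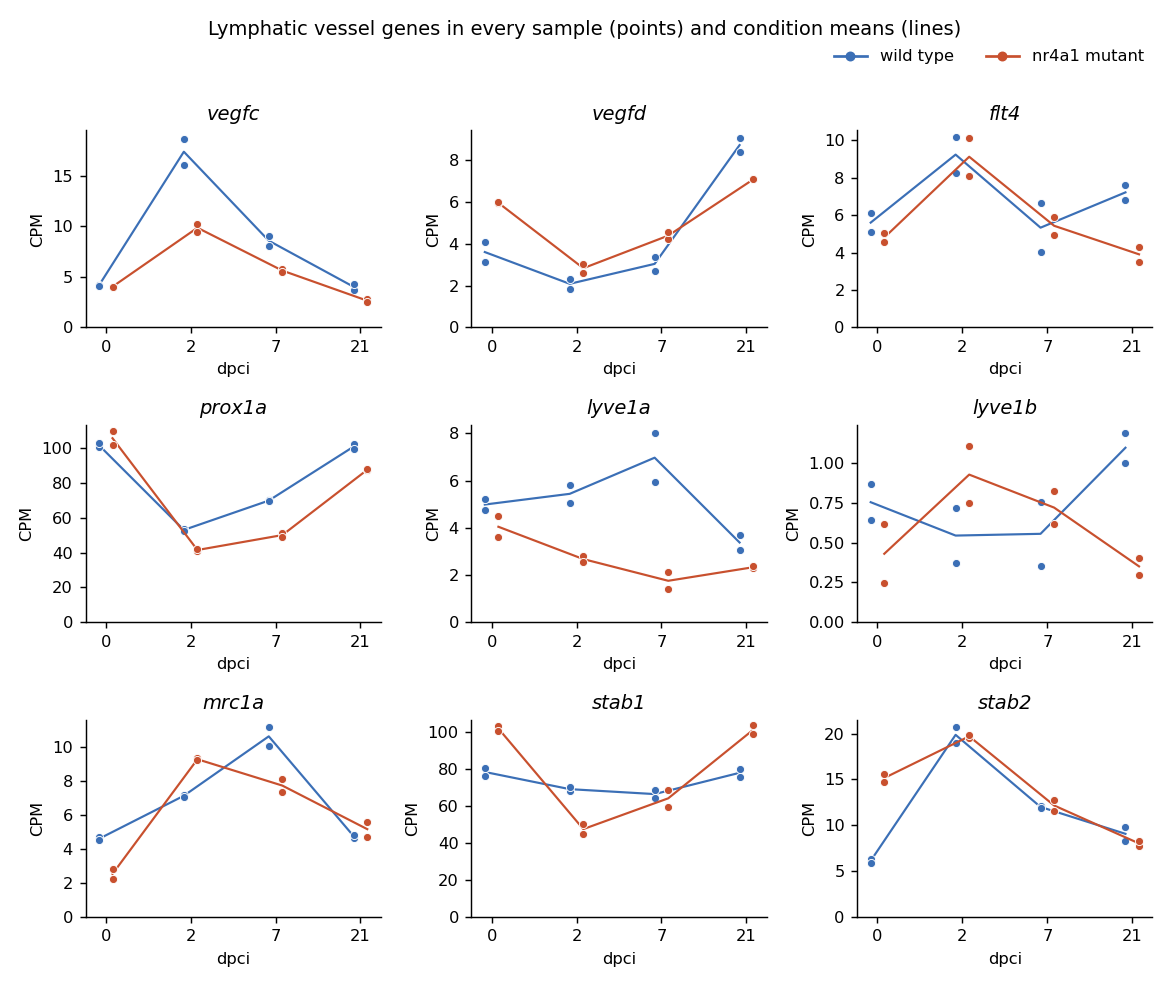
Level of the 9 genes in each of the 16 samples, in CPM on separate axes, against days post-cryoinjury (evenly spaced) for WT and nr4a1 mutant ventricles. Points are samples and lines join condition means. vegfc peaks at 2 dpci in both genotypes, reaching 16.1 and 18.7 CPM in WT and 10.2 and 9.49 CPM in mutants, whereas prox1a is lowest then, at 53.7 and 52.4 CPM in WT and 40.8 and 42.2 CPM in mutants.

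The first question was how mutant ventricles differ from WT ventricles on each day. At 0 dpci, 3 of the 9 genes were called: stab2 and vegfd were higher in mutants and mrc1a was lower. Of all genes tested, 23.7% were called in that comparison. At 2 dpci, lyve1a, vegfc and stab1 were called, all 3 lower in mutants, against 16.8% of all genes. At 7 dpci the 2 called genes, lyve1a and vegfc, were again lower in mutants, against 13.0% of all genes, and at 21 dpci vegfc, flt4 and lyve1b were called, all 3 lower, against 16.3% of all genes. The median log2 difference of the 9 genes was −0.044, −0.012, −0.049 and −0.30 at 0, 2, 7 and 21 dpci, beside 0.015, 0.021, 0.00027 and 0.018 over all genes tested. Called genes were thus 33.3% of the 9 at 0, 2 and 21 dpci and 22.2% at 7 dpci, and whether this exceeds the background was not tested. vegfc was called on 3 days and prox1a on none. Over the 4 days, 8 of the 9 genes were called at least once, beside 43.4% of all genes, and for lyve1b and stab1 that single call was lost when 1 sample was left out (values with each gene).

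**Figure D2:**
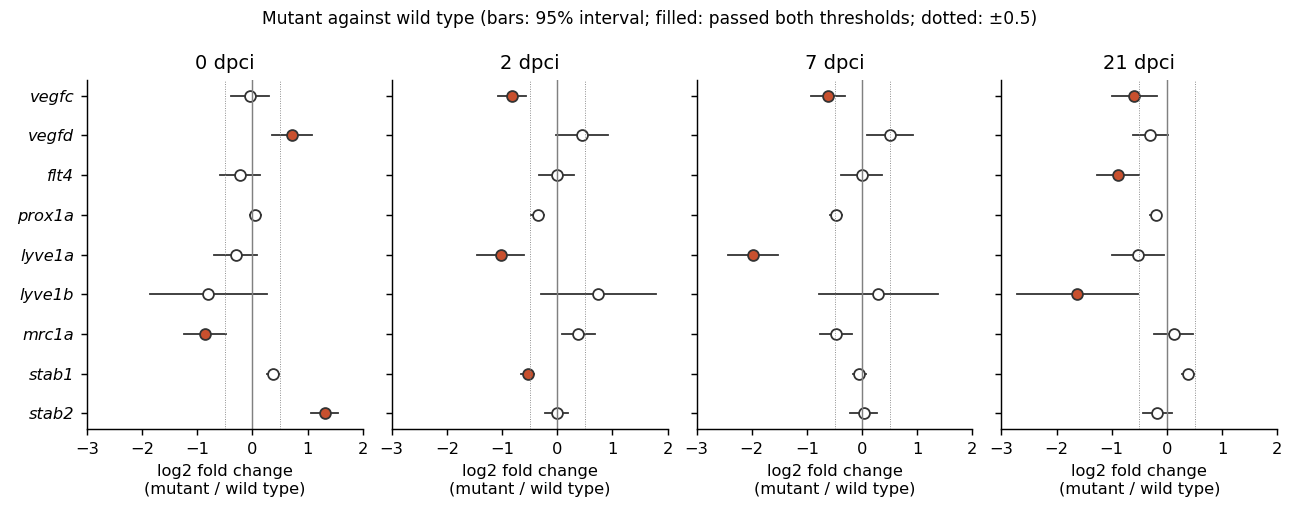
Log2 fold change of mutant over WT ventricles for each of the 9 genes at 0, 2, 7 and 21 dpci, with 95% confidence intervals from the edgeR fit. Filled points are called genes and dotted lines mark the fold threshold of 0.5. lyve1a reaches −1.98 at 7 dpci, stab2 stands at 1.31 in uninjured ventricles and near 0 after injury, and lyve1b has the widest intervals.

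vegfc encodes the main growth factor for lymphatic vessels. In WT it was counted at 4.21 and 4.11 CPM uninjured, 16.1 and 18.7 CPM at 2 dpci, 8.11 and 9.07 CPM at 7 dpci, and 3.69 and 4.35 CPM at 21 dpci. In mutants the values were 4.03 and 4.04, then 10.2 and 9.49, then 5.82 and 5.44, and finally 2.77 and 2.53 CPM. Both genotypes thus started level, peaked at 2 dpci and were down to, or under, the uninjured level by 21 dpci, and on each day after injury both mutant samples lay below both WT samples. From 0 to 2 dpci vegfc rose by 2.06 ± 0.143 (SE) on the log2 scale in WT (edgeR, adjusted p = 1.62e-21) and by 1.29 ± 0.159 in mutants (edgeR, adjusted p = 5.76e-11). The mutant level was lower by −0.82 ± 0.131 at 2 dpci (adjusted p = 3.25e-07), by −0.61 ± 0.156 at 7 dpci (adjusted p = 0.00148) and by −0.59 ± 0.203 at 21 dpci (adjusted p = 0.0174, all edgeR). At 0 dpci the difference was −0.04 with a 95% confidence interval of −0.39 to 0.31. The genotype difference itself changed from 0 to 2 dpci by −0.78 ± 0.220 (edgeR interaction, adjusted p = 0.00352). From 0 to 7 and from 0 to 21 dpci it moved by −0.57 and −0.55, which did not pass the test (edgeR, adjusted p = 0.0709 and 0.106). The call at 7 dpci was lost without WT sample 2 of that day (−0.51, adjusted p = 0.0558), and that at 21 dpci without WT sample 2 (−0.48, adjusted p = 0.16) or mutant sample 2 (−0.53, adjusted p = 0.115), while that at 2 dpci was kept whichever sample was left out.

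After the peak, vegfc fell by 1.01 ± 0.132 on the log2 scale from 2 to 7 dpci in WT and by 0.80 ± 0.155 in mutants, and then from 7 to 21 dpci by 1.11 ± 0.166 and 1.09 ± 0.191 (edgeR, adjusted p between 9.35e-10 and 1.26e-05 for the 4 steps). Over the whole course WT returned to its start, with a change of −0.05 and a 95% confidence interval of −0.42 to 0.31. Mutants ended below their own uninjured level by −0.61 ± 0.197 (edgeR, adjusted p = 0.0101), a call that was lost without mutant sample 2 of 21 dpci (−0.54, adjusted p = 0.0838).

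vegfd encodes a related growth factor, whose mammalian counterpart binds VEGFR3. In zebrafish it takes part in forming lymphatic vessels of the head. Its course ran opposite to that of vegfc. In WT it stood at 4.09 and 3.12 CPM uninjured, 2.32 and 1.85 CPM at 2 dpci, 2.72 and 3.36 CPM at 7 dpci, and 8.38 and 9.06 CPM at 21 dpci. Mutants gave 5.93 and 5.99, 2.62 and 3.05, 4.23 and 4.56, and 7.08 and 7.08 CPM on the same days. Mutants were above WT up to 7 dpci and below WT at 21 dpci, with no overlap of samples on any day, but only the uninjured difference was called (0.72 ± 0.180, edgeR, adjusted p = 0.000657). At 2, 7 and 21 dpci the differences were 0.45, 0.51 and −0.30 (edgeR, adjusted p = 0.143, 0.058 and 0.159), and the one at 7 dpci was called with RLE in place of TMM scaling (0.52, adjusted p = 0.0496). From 0 to 21 dpci the genotype difference changed by −1.02 ± 0.243 (edgeR interaction, adjusted p = 0.000436).

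Between 0 and 2 dpci vegfd fell by 0.79 ± 0.220 on the log2 scale in WT and by 1.06 ± 0.197 in mutants (edgeR, adjusted p = 0.0014 and 2.6e-06), and the WT call was lost without WT sample 1 of 0 dpci (−0.58, adjusted p = 0.0589). From 7 to 21 dpci it rose by 1.5 ± 0.185 in WT and by 0.69 ± 0.181 in mutants (edgeR, adjusted p = 7.27e-11 and 0.000907). WT ventricles at 21 dpci were thus above uninjured ones by 1.27 ± 0.175 (edgeR, adjusted p = 4.38e-09), whereas the mutant change over the same span was 0.25 (edgeR, adjusted p = 0.254). The step from 2 to 7 dpci was smaller, 0.56 in WT and 0.62 in mutants (edgeR, adjusted p = 0.0422 and 0.0136). The WT step was lost without WT sample 1 (0.69, adjusted p = 0.0597) or sample 2 (0.36) of 2 dpci or sample 2 of 7 dpci (0.34), with DESeq2 (adjusted p = 0.0952) and without the filter on low counts (adjusted p = 0.0924), and the mutant step without mutant sample 1 of 2 dpci (0.48) or sample 2 of 7 dpci (0.53).

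The 2 ligands can be set against each other within a sample, where depth cancels. Relative to the mean of the uninjured WT samples, the log2 ratio of vegfc to vegfd counts was 2.57 and 3.12 in WT at 2 dpci, 1.36 and 1.21 at 7 dpci, and −1.40 and −1.28 at 21 dpci. Mutants had −0.78 and −0.79 uninjured, 1.75 and 1.42 at 2 dpci, 0.24 and 0.037 at 7 dpci, and −1.57 and −1.71 at 21 dpci, against −0.18 and 0.18 in uninjured WT. The ratio was lower in both mutant samples than in both WT samples on all 4 days, and within each genotype it was highest at 2 dpci and lowest at 21 dpci. This is a description, and the ratio itself was not tested. In uninjured ventricles the genotype difference was −0.04 for vegfc and 0.72 for vegfd, and at 21 dpci −0.59 and −0.30.

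**Figure D3:**
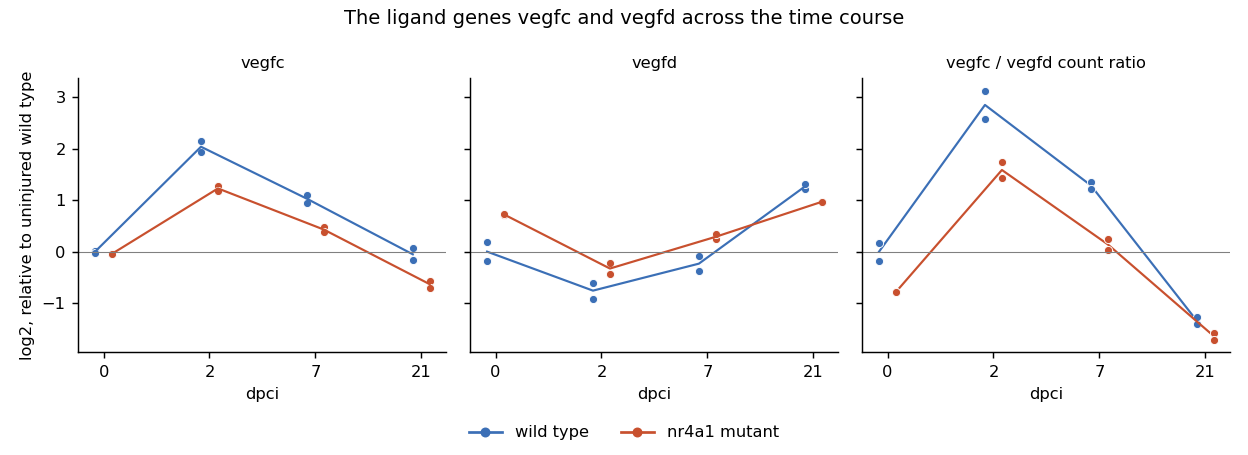
Log2 level of the ligand genes vegfc and vegfd, and of their count ratio, relative to the mean of the 2 uninjured WT samples, against days post-cryoinjury (evenly spaced). Points are samples and lines join condition means. The ratio climbs to 2.57 and 3.12 in WT but to 1.75 and 1.42 in mutants at 2 dpci, and is below 0 in all samples of both genotypes at 21 dpci.

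flt4 encodes Vegfr3, the receptor for Vegfc. WT samples held 6.11 and 5.09 CPM uninjured, 10.2 and 8.27 CPM at 2 dpci, 4.03 and 6.64 CPM at 7 dpci, and 6.80 and 7.63 CPM at 21 dpci. Mutant samples held 5.03 and 4.58, 8.10 and 10.1, 5.93 and 4.94, and 3.52 and 4.30 CPM. The genotypes overlapped at 2 and 7 dpci and stood apart at 21 dpci, where both mutant samples were below both WT samples. At 21 dpci flt4 was lower in mutants by −0.88 ± 0.190, a 1.84-fold difference (edgeR, adjusted p = 0.000108). At 0, 2 and 7 dpci the differences were −0.22, −0.01 and −0.0026, with 95% confidence intervals of −0.58 to 0.14, −0.33 to 0.31 and −0.37 to 0.37. The change in the genotype difference from 0 to 21 dpci was −0.66 ± 0.263 (edgeR interaction, adjusted p = 0.042), close to the threshold. It ranged from −0.81 to −0.52 over samples left out, of which 5 lost the call, and DESeq2 gave an adjusted p of 0.115. flt4 rose from 0 to 2 dpci by 0.72 ± 0.166 in WT and 0.93 ± 0.174 in mutants (edgeR, adjusted p = 0.000131 and 3.34e-06) and fell by 0.75 ± 0.170 and 0.74 ± 0.176 from 2 to 7 dpci (edgeR, adjusted p = 0.000174 and 0.000312). The WT fall came to −1.24 without WT sample 2 of 7 dpci. From 7 to 21 dpci flt4 changed by 0.39 in WT and by −0.48 in mutants (edgeR, adjusted p = 0.0545 and 0.0368). Neither step was called, the mutant one for its size alone, and that one was called with RLE scaling (−0.52, edgeR, adjusted p = 0.0257). The WT step was 0.84 without WT sample 2 of 7 dpci. The mutant step was −0.61 without mutant sample 2 of 7 dpci and −0.63 without mutant sample 2 of 21 dpci.

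prox1a encodes a transcription factor of lymphatic endothelium that is also present in heart muscle. WT ventricles gave 100.6 and 103 CPM uninjured, 53.7 and 52.4 CPM at 2 dpci, 70.3 and 69.6 CPM at 7 dpci, and 102 and 99.8 CPM at 21 dpci. Mutant ventricles gave 109.9 and 102 CPM, then 40.8 and 42.2, then 51.1 and 49.1, and then 87.4 and 87.9 CPM. The uninjured samples overlapped, and on every day after injury the mutant samples were below the WT samples. The differences were −0.35 ± 0.0589 at 2 dpci, −0.48 ± 0.0555 at 7 dpci and −0.21 ± 0.0496 at 21 dpci (edgeR, adjusted p = 9.04e-07, 4.16e-11 and 0.000563), which passed the p-value threshold but not the fold threshold. At 0 dpci the difference was 0.06, with a 95% confidence interval of −0.04 to 0.15. The change in the genotype difference from 0 dpci was −0.41, −0.54 and −0.26 at 2, 7 and 21 dpci (edgeR interaction, adjusted p = 8.14e-06, 9.31e-09 and 0.00137). From 0 to 2 dpci prox1a fell by 0.94 ± 0.0516 in WT and by 1.35 ± 0.0541 in mutants (edgeR, adjusted p = 4.7e-27 and 4.06e-35). It rose from 7 to 21 dpci by 0.53 ± 0.0508 and 0.81 ± 0.0542 (edgeR, adjusted p = 5.41e-15 and 6.35e-22), after which WT was level with its start (−0.01) and mutants were at −0.27.

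The summed level of 14 cardiomyocyte markers was, as prox1a was, lowest at 2 dpci in both genotypes. The sum of the blood endothelial and endocardial markers given below was also lowest then. From 0 to 2 dpci the log2 changes of the sums were −0.79 (cardiomyocyte) and −0.88 (endothelial) in WT, and −0.88 and −0.76 in mutants. The median changes over the genes of each list were −0.74 and −0.229 in WT, and −0.81 and −0.275 in mutants. Of the 14 cardiomyocyte markers, 0 were called higher and 9 lower in WT, and 1 and 12 in mutants. Of the 19 endothelial markers these numbers were 3 and 8 in WT, and 4 and 9 in mutants. Of all genes, 41.9% were called in WT and 45.2% in mutants. The cardiomyocyte sum was 92580 to 93390 CPM in uninjured WT, 53670 to 54110 CPM at 2 dpci, 57620 to 59430 CPM at 7 dpci and 90410 to 90800 CPM at 21 dpci. In mutants it was 84890 to 87210, 46270 to 46980, 51930 to 52230 and 77230 to 77860 CPM. The log2 ratio of mutant to WT sums was −0.11, −0.21, −0.17 and −0.23 over the 4 days, and the median log2 difference over the 14 genes was 0.021, −0.10, −0.039 and −0.20. On a given day 1 to 4 of them were called. These are 7.14%, 28.6%, 14.3% and 14.3% of the list, beside 23.7%, 16.8%, 13.0% and 16.3% of all genes. Each gene of the list was counted in every condition, and the part of heart muscle or endothelium in the prox1a values was not tested.

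lyve1a and lyve1b encode hyaluronan receptors of the lymphatic endothelium. lyve1a gave 4.75 and 5.22 CPM in uninjured WT, 5.07 and 5.81 CPM at 2 dpci, 5.92 and 8.02 CPM at 7 dpci, and 3.06 and 3.70 CPM at 21 dpci. In mutants it gave 3.61 and 4.48, 2.80 and 2.55, 2.11 and 1.39, and 2.28 and 2.38 CPM. Both mutant samples were below both WT samples on all 4 days, and the gap was widest at 7 dpci. There the mutant level was lower by −1.98 ± 0.225, a 3.95-fold difference (edgeR, adjusted p = 1.94e-11), and at 2 dpci by −1.03 ± 0.215, a 2.04-fold difference (edgeR, adjusted p = 6.7e-05). The differences of −0.30 at 0 dpci and −0.53 at 21 dpci were not called (edgeR, adjusted p = 0.209 and 0.0786). The genotype difference changed from 0 to 7 dpci by −1.68 ± 0.302 (edgeR interaction, adjusted p = 7.84e-06). From 0 to 2 dpci it changed by −0.73 ± 0.291 (edgeR interaction, adjusted p = 0.0451), which was lost in 6 leave-one-out fits (range −0.88 to −0.56), with DESeq2 (adjusted p = 0.134) and without the filter on low counts (adjusted p = 0.0643).

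Within mutants lyve1a fell from 0 to 2 dpci by 0.60 ± 0.222 (edgeR, adjusted p = 0.0161), while the WT estimate was 0.13 (edgeR, adjusted p = 0.576). The mutant fall was not called without sample 2 of 0 dpci (−0.44) or sample 1 or 2 of 2 dpci (−0.62 with an adjusted p of 0.0507, and −0.49). In WT the fall came from 7 to 21 dpci, by 1.07 ± 0.199 (edgeR, adjusted p = 3.89e-06), where mutants had an estimate of 0.38 (edgeR, adjusted p = 0.246). Both genotypes were below their uninjured level at 21 dpci, WT by −0.57 ± 0.205 and mutants by −0.79 ± 0.225 (edgeR, adjusted p = 0.0198 and 0.00282). The WT call was lost without WT sample 2 of 0 dpci (−0.50), without WT sample 1 of 21 dpci (−0.43) and with DESeq2 (adjusted p = 0.0532), and the mutant call without mutant sample 2 of 0 dpci (−0.63, adjusted p = 0.0706).

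lyve1b was at the edge of detection. Its counts were 21 and 15 in uninjured WT, 7 and 14 at 2 dpci, 6 and 18 at 7 dpci, and 19 and 20 at 21 dpci, and in mutants 13 and 5, 19 and 15, 12 and 13, and 6 and 8. Neighbouring conditions in the order of its means overlapped throughout, from 0.351 CPM in mutants to 1.1 CPM in WT, both at 21 dpci. The difference at 21 dpci was called at −1.63 ± 0.551 (edgeR, adjusted p = 0.0163). It was lost without mutant sample 1 (−1.42, adjusted p = 0.122) or WT sample 2 (−1.5, adjusted p = 0.0887) of that day. A difference on the other days was not detectable at this depth, since the 95% confidence intervals ran from −1.86 to 0.27 at 0 dpci, from −0.30 to 1.79 at 2 dpci and from −0.78 to 1.37 at 7 dpci.

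mrc1a encodes a mannose receptor that marks lymphatic and venous endothelium in zebrafish. WT samples gave 4.67 and 4.49 CPM uninjured, 7.18 and 7.04 CPM at 2 dpci, 10.1 and 11.1 CPM at 7 dpci, and 4.64 and 4.83 CPM at 21 dpci. Mutant samples gave 2.80 and 2.24, 9.32 and 9.19, 7.32 and 8.10, and 5.60 and 4.70 CPM. Mutants began lower and overlapped WT at 21 dpci. The highest samples were at 2 dpci in mutants and at 7 dpci in WT, although the mutant step from 2 to 7 dpci, −0.27, did not pass the test (edgeR, adjusted p = 0.154). The uninjured difference was −0.86 ± 0.191 (edgeR, adjusted p = 0.000132). The estimate was above 0 at 2 dpci (0.38, edgeR, adjusted p = 0.041) and below 0 at 7 dpci (−0.47, edgeR, adjusted p = 0.0111), and neither passed the fold threshold. With 1 sample left out, the estimates ranged from 0.37 to 0.40 at 2 dpci and from −0.53 to −0.38 at 7 dpci. On both days some of these fits did not pass the p-value threshold. The 7 dpci difference was over the fold threshold without mutant sample 2 (−0.53) or WT sample 1 (−0.52). The change in the genotype difference from 0 dpci was 1.24 ± 0.243 at 2 dpci and 0.98 ± 0.260 at 21 dpci (edgeR interaction, adjusted p = 2.6e-05 and 0.00161), and 0.39 at 7 dpci, which did not pass (edgeR, adjusted p = 0.265).

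Over time, mrc1a rose from 0 to 2 dpci by 1.87 ± 0.177 in mutants and 0.63 ± 0.161 in WT (edgeR, adjusted p = 2.3e-15 and 0.000485). It rose again from 2 to 7 dpci in WT (0.58, edgeR, adjusted p = 0.000706), which was under the fold threshold without WT sample 2 of 7 dpci (0.46). From 7 to 21 dpci it fell by 1.17 ± 0.158 in WT and by 0.58 ± 0.163 in mutants (edgeR, adjusted p = 1.46e-09 and 0.00215), the latter not called without mutant sample 2 of 21 dpci (−0.46). Mutants at 21 dpci were above uninjured mutants by 1.03 ± 0.192 (edgeR, adjusted p = 7.25e-06), and WT was at 0.05 over the same span.

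stab1 and stab2 encode stabilins, large scavenger receptors of venous and lymphatic endothelium that take up hyaluronan and other ligands. stab2 was counted at 6.36 and 5.86 CPM in uninjured WT and at 15.6 and 14.7 CPM in uninjured mutants. After injury the genotypes ran together, at 18.96 and 20.8 against 19.5 and 19.9 CPM at 2 dpci, 12.1 and 11.8 against 12.7 and 11.6 CPM at 7 dpci, and 8.27 and 9.84 against 7.77 and 8.24 CPM at 21 dpci (WT first). The uninjured mutant level was thus 2.48 times that of WT, 1.31 ± 0.121 on the log2 scale (edgeR, adjusted p = 3.71e-15). At 2, 7 and 21 dpci the 95% confidence intervals were −0.22 to 0.19, −0.21 to 0.26 and −0.44 to 0.093. The genotype difference changed from 0 dpci by −1.32, −1.28 and −1.48 at 2, 7 and 21 dpci (edgeR interaction, adjusted p = 1.39e-10, 4.26e-09 and 1.48e-10).

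stab2 rose from 0 to 2 dpci by 1.70 ± 0.118 in WT (edgeR, adjusted p = 1.6e-21), whereas the mutant change of 0.38 was under the fold threshold (edgeR, adjusted p = 0.00137). It fell from 2 to 7 dpci by 0.73 ± 0.109 in WT and by 0.69 ± 0.112 in mutants (edgeR, adjusted p = 4.31e-08 and 2.95e-07), and in mutants by 0.61 ± 0.127 more to 21 dpci (edgeR, adjusted p = 3.73e-05). The WT change from 7 to 21 dpci, −0.41, was under the fold threshold (edgeR, adjusted p = 0.00386). That WT change was −0.53 without WT sample 2 of 21 dpci. At 21 dpci, WT was above its uninjured level by 0.56 ± 0.135 and mutants below theirs by −0.92 ± 0.120 (edgeR, adjusted p = 0.000401 and 9.12e-10). Without WT sample 2 of 21 dpci the WT value was 0.44.

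stab1 showed the smallest range of the 9 genes in WT, 76.1 and 80.6 CPM uninjured, 67.8 and 70.2 CPM at 2 dpci, 64.4 and 68.4 CPM at 7 dpci, and 80.0 and 75.7 CPM at 21 dpci. Mutant samples gave 103 and 100.2, 44.9 and 50.0, 68.6 and 59.6, and 98.6 and 104 CPM. Mutants were above WT at 0 and 21 dpci, below WT at 2 dpci, and overlapped WT at 7 dpci. The difference of −0.54 ± 0.0605 at 2 dpci was called (edgeR, adjusted p = 1.03e-11), but was −0.45 without mutant sample 1 of that day. The differences of 0.38 at 0 dpci and 0.38 at 21 dpci passed the p-value threshold but not the fold threshold (edgeR, adjusted p = 5.83e-09 and 2.74e-08). The change from 0 dpci was −0.92 ± 0.0802 at 2 dpci and −0.43 ± 0.0786 at 7 dpci (edgeR interaction, adjusted p = 5.75e-16 and 1.18e-05). In mutants stab1 fell by 1.1 ± 0.0576 from 0 to 2 dpci and rose by 0.65 ± 0.0560 from 7 to 21 dpci (edgeR, adjusted p = 3.3e-28 and 7.16e-17), while no step in WT passed the fold threshold.

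Read by step of the injury course, the 9 genes did not move as one group. From 0 to 2 dpci in WT, 6 were called, with flt4, mrc1a, stab2 and vegfc higher and prox1a and vegfd lower, against 41.9% of all genes. In mutants 7 were called, with flt4, mrc1a and vegfc higher and lyve1a, prox1a, stab1 and vegfd lower, against 45.2% of all genes. From 2 to 7 dpci, 5 were called in WT (2 higher and 3 lower) against 23.4% of all genes and 4 in mutants (1 higher and 3 lower) against 21.8%, and the WT number was 3 without WT sample 2 of 7 dpci. From 7 to 21 dpci, 5 were called in WT (2 higher and 3 lower) against 37.0% and 6 in mutants (3 higher and 3 lower) against 29.8%. Between uninjured ventricles and 21 dpci, 3 were called in WT, with stab2 and vegfd higher and lyve1a lower, against 23.4% of all genes. In mutants 4 were called over that span, with mrc1a higher and lyve1a, stab2 and vegfc lower, against 20.0%. The change in the genotype difference was called, on the adjusted p alone, for 6 of the 9 genes from 0 to 2 dpci, 4 from 0 to 7 dpci and 5 from 0 to 21 dpci, against 34.0%, 23.6% and 35.7% of all genes. Comparisons that share a condition share its samples and are not independent of each other.

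The number of genes called between genotypes rested on single samples on some days. It was 1 in place of 2 at 7 dpci without WT sample 2 of that day, and 1 in place of 3 at 21 dpci without WT sample 2 of that day.

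The other genes of the pathway were read from a list of 46 symbols, of which 43 were in the table and 42 were tested: enzymes and matrix proteins that process Vegfc, other Vegf ligands and receptors, angiopoietins and their Tie receptors, lymphatic and venous transcription factors, guidance cues and surface proteins. In mutants relative to WT, 11 were called in uninjured ventricles, of which 5 were raised. At 2 dpci 3 were raised and 2 reduced, at 7 dpci the numbers were 2 and 4, and at 21 dpci 8 of the 11 called genes were reduced. These are 26.2%, 11.9%, 14.3% and 26.2% of the list, beside 23.7%, 16.8%, 13.0% and 16.3% of all genes, and at 21 dpci 1294 of all genes were reduced and 1799 raised. The median log2 differences of the list were −0.0080, 0.042, −0.11 and −0.28. At each day the 3 with the largest called difference were taken up.

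Vegfc is cut into its active form by Adamts3 or Adamts14 on the matrix protein Ccbe1. adamts3 and adamts14 were lower in uninjured mutants, by −1.28 ± 0.343 and −1.37 ± 0.546 (edgeR, adjusted p = 0.00152 and 0.0356), from low levels: adamts3 had 48 and 55 counts in WT and 16 and 21 in mutants, and adamts14 had 14 and 16 against 3 and 7. At 2 dpci neither was called (0.36 and −0.33, edgeR, adjusted p = 0.381 and 0.532). svep1, which encodes a matrix protein needed for lymphatic growth and is in the same list, was higher in uninjured mutants, with mean levels of 76.7 against 49.0 CPM (0.65 ± 0.0541, edgeR, adjusted p = 3.96e-17), and was looked up after its values were seen. ccbe1 held 2.06 and 1.29 CPM in WT at 2 dpci against 1.17 and 0.749 CPM in mutants, and 3.26 and 3.70 against 2.01 and 2.28 CPM at 7 dpci. It was lower by −0.82 ± 0.336 and −0.71 ± 0.255 on these days (edgeR, adjusted p = 0.0495 and 0.0292). At 21 dpci, where it was looked up after its values were seen, ccbe1 gave 4.64 and 4.47 CPM in WT against 2.62 and 2.78 CPM in mutants, a difference of −0.75 ± 0.235 (edgeR, adjusted p = 0.00854). Uninjured samples of the genotypes lay close together, at 1.94 and 2.1 against 2.09 and 2.48 CPM (0.18, edgeR, adjusted p = 0.618). The change in its difference from 0 dpci passed the test at 21 dpci (−0.93, edgeR, adjusted p = 0.03) but not at 2 or 7 dpci (adjusted p = 0.0622 and 0.0675).

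Angiopoietin 2 is a ligand of the Tie2 receptor that takes part in vessel remodelling, and zebrafish have a pair of genes for it. angpt2b was higher in mutants by 1.02 ± 0.376 at 2 dpci, 2.09 ± 0.306 at 7 dpci and 1.83 ± 0.338 at 21 dpci (edgeR, adjusted p = 0.0265, 4.83e-08 and 7.34e-06). Its counts at 7 dpci were 19 and 23 in WT and 66 and 88 in mutants. angpt2a was lower in uninjured mutants, with 79 and 86 counts in WT against 32 and 24 in mutants (−1.36 ± 0.267, edgeR, adjusted p = 1.65e-05). angpt1, another angiopoietin gene, went the other way, with mean levels of 122 CPM in uninjured mutants against 55.4 CPM in WT. It was looked up after its values were seen. Of the 5 angiopoietin and Tie genes, 1 was called higher and 2 lower in uninjured mutants, 60% of this list beside 23.7% of all genes. Among the other Vegf genes, vegfbb, a Vegfb ligand, had 23 and 27 counts in WT at 2 dpci and 5 and 10 in mutants (−1.68 ± 0.603, edgeR, adjusted p = 0.0225). At 21 dpci pgfb, a placental growth factor gene, and flt1, which encodes a Vegf receptor that sequesters ligand, were lower in mutants. pgfb gave 10.3 and 10.2 CPM in WT against 5.64 and 4.85 CPM (−0.97 ± 0.163, edgeR, adjusted p = 1.17e-06), and flt1 gave 109 and 106 CPM against 56.8 and 58.6 CPM (−0.90 ± 0.0523, edgeR, adjusted p = 9.07e-25). On earlier days flt1 was not lower in mutants. It gave 113 and 102.7 CPM in WT against 167.7 and 167 CPM uninjured, and 40.1 and 41.2 against 64.4 and 69.7 CPM at 2 dpci. The genotypes overlapped at 7 dpci. ramp2, which encodes a subunit of the adrenomedullin receptor, gave 136 and 132 CPM in WT against 79.0 and 79.0 CPM in mutants at 7 dpci (−0.76 ± 0.0503, edgeR, adjusted p = 1.29e-21). Its mutant samples were also below WT uninjured (176.5 and 195.7 against 95.97 and 102.4 CPM, WT first) and at 21 dpci (106.3 and 111.1 against 83.08 and 80.43 CPM). At 2 dpci they were above WT (85.22 and 79.95 against 96.87 and 91.95 CPM).

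Markers of other cells were compared beside the 9 genes, since several of the latter are known from other endothelium or, in mammals, from macrophages. The summed level of 19 blood endothelial and endocardial markers in WT was 3314 to 3324 CPM uninjured, 1794 to 1820 CPM at 2 dpci, 2326 to 2343 CPM at 7 dpci and 3198 to 3238 CPM at 21 dpci. In mutants it was 3328 to 3346, 1958 to 1979, 2454 to 2478 and 2721 to 2748 CPM. The log2 ratio of mutant to WT sums was 0.0077, 0.12, 0.079 and −0.24 over the 4 days. The sum is carried by a few abundant genes, with aqp8a.1 alone at 1223 CPM in uninjured WT, and the median log2 difference over the 19 genes was −0.066, −0.025, −0.17 and −0.27. Only 8, 9, 5 and 3 of the 19 had an estimate above 0, so that sum and median differed in sign at 0, 2 and 7 dpci. Of the 19 markers, 4 were called at 0 dpci and 2 at 21 dpci, all lower in mutants, while 5 were called at 2 dpci (3 of them lower) and 4 at 7 dpci (3 of them lower). These are 21.1%, 26.3%, 21.1% and 10.5% of the list at 0, 2, 7 and 21 dpci, to be read beside the 23.7%, 16.8%, 13.0% and 16.3% of all genes.

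The summed level of 17 macrophage markers was 535 to 539 CPM in uninjured WT, 1698 to 1703 CPM at 2 dpci, 2001 to 2012 CPM at 7 dpci and 622 to 626 CPM at 21 dpci. In mutants it was 680.2 to 704, 1990 to 1994, 2288 to 2297 and 1024 to 1062 CPM. The mutant sum was above the WT sum on all 4 days, by log2 ratios of 0.37, 0.23, 0.19 and 0.74, with 6 of the 17 markers called higher and 2 lower at 0 dpci, 3 and 1 at 2 dpci, 4 and 1 at 7 dpci, and 10 called at 21 dpci, each of them higher. These are 47.1%, 23.5%, 29.4% and 58.8% of the list, beside the same shares of all genes. The differences in lyve1a, mrc1a, stab1 and stab2 that passed the p-value threshold went both ways beside this sum. Those of lyve1a at 2 and 7 dpci, mrc1a at 0 and 7 dpci and stab1 at 2 dpci were opposite in sign to the sum. Those of stab2 at 0 dpci, stab1 at 0 and 21 dpci and mrc1a at 2 dpci had its sign. The part of macrophages in these values was not tested.

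The 9 neutrophil markers summed to between 192 and 413 CPM in the 16 samples. In mutants, 7 were called higher and 1 lower in uninjured ventricles, the 1 called at 2 dpci was lower, 6 were called at 7 dpci, each of them higher, and 5 higher and 1 lower at 21 dpci. These are 88.9%, 11.1%, 66.7% and 66.7% of the list, beside 23.7%, 16.8%, 13.0% and 16.3% of all genes. The median log2 differences of this list were 1.37, 0.14, 0.84 and 0.60, while its sum is mostly srgn, at 215 CPM in uninjured WT. The 13 epicardial and fibroblast markers differed between genotypes by log2 ratios of −0.58, 0.40, 0.21 and 0.24 over the 4 days, and lay between 1564 and 1596 CPM in uninjured WT and between 7062 and 7155 CPM in WT at 7 dpci. The 7 erythrocyte markers were at 2021 to 2059 CPM in uninjured WT and 1048 to 1051 CPM in uninjured mutants. The log2 ratio of mutant to WT sums was −0.96, −0.0078, −0.15 and 0.215 over the 4 days. At 0 dpci 5 of the 7 were called, all lower in mutants, which is 71.4% of the list beside 23.7% of all genes. At 2, 7 and 21 dpci 0 of them were called. All genes of these lists were counted in every condition. Their part in the values of the 9 genes was not tested.

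**Figure D4:**
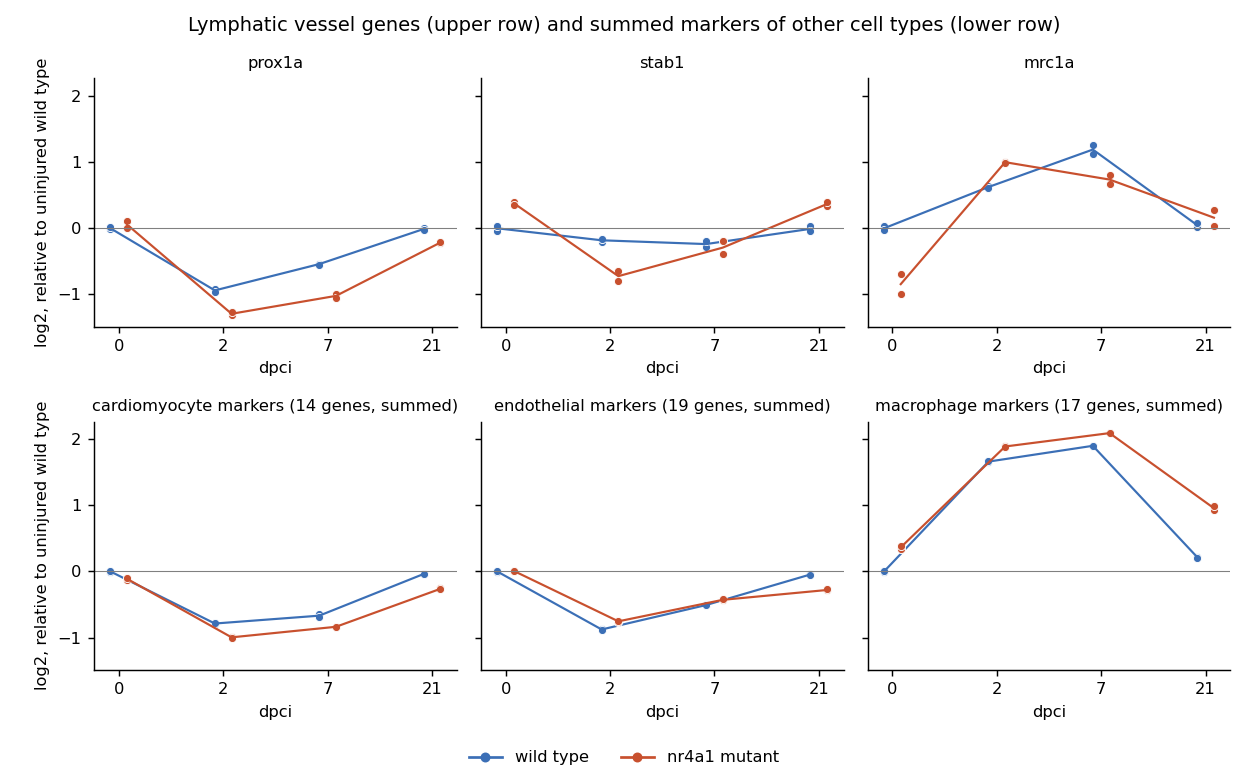
Log2 level of prox1a, stab1 and mrc1a and of the summed cardiomyocyte, endothelial and macrophage markers in each sample, relative to the uninjured WT mean, against days post-cryoinjury (evenly spaced). Points are samples and lines join condition means. Cardiomyocyte and blood endothelial sums are lowest at 2 dpci, with log2 changes of −0.79 and −0.88 in WT, when macrophage sums are 1.66 above the start.

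The genes whose course over the 16 samples was most like that of each of the 9 were ranked by the root mean square difference (RMSD) of mean-centred log2 CPM, among genes with a mean of at least 5 CPM. prox1a was matched most closely by mylk2, syne2b and arhgap35b, with RMSD values of 0.0924, 0.0995 and 0.112. stab1 was matched nearly as closely by enpp5, wnk1b and smarca1 (0.0963, 0.111 and 0.118). Matches were looser for mrc1a (foxp4, htra1b and cercam, 0.199 to 0.22), stab2 (ap3m2, il13ra1 and atp6v0e1, 0.215 to 0.232) and flt4 (ism1, eef1akmt1 and tomm40l, 0.223 to 0.234). They were looser still for vegfd (ca5a, creb3l3b and zfyve9b, 0.259 to 0.264), vegfc (tubb1, gata1a and dpp3, 0.328 to 0.336), lyve1a (sh3glb2b, vldlr and cry3b, 0.365 to 0.393) and lyve1b (sox6, sema3ga and TADA1, 0.387 to 0.436). lyve1a, lyve1b and vegfd were under that mean and could not be matches themselves. For scale, the standard deviation of log2 CPM over the 16 samples was 0.514 for prox1a, 0.354 for stab1, 0.653 for lyve1a and 0.58 for lyve1b. The closest matches were thus those of the genes with the most counts and the loosest that of the gene with the fewest. The part of counting noise in the RMSD values was not tested.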

How the data were processed

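Ventricle RNA of 16 samples was sequenced by a commercial provider. The authors deposited raw counts of reads per gene, with no normalization. The study's methods and the submitters' processing notes name FastQC, STAR and featureCounts, and the build GRCz11 (danRer11); versions, strand setting and handling of reads with several alignments were not given in the sources used here. Imaging and qRT-PCR were not analysed here.

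The software was DESeq2 1.42.0, edgeR 4.0.16 and limma 3.58.1, run under R 4.3.3. Of 31351 genes, 18949 had at least 10 counts in at least 2 samples and were tested. A quasi-likelihood model (glmQLFit, glmQLFTest) took TMM scaling, gave each condition its own coefficient and used all 16 samples together, which share one variance estimate (prior degrees of freedom 62.3). Calls required a Benjamini-Hochberg adjusted p under 0.05 and, except for the change in the genotype difference, an absolute log2 fold change over 0.5. No batch term was fitted, since neither labels nor methods name a batch, although the latter refer to batch effects. Errors of fold changes are standard errors and intervals are 95% confidence intervals. Log2 CPM used a prior count of 2. Named from the lists were, at each day, at most 3 pathway genes with the largest called genotype difference, and for each of the 9 genes the 3 nearest in pattern. Genes said to be looked up after their values were seen fall outside this rule. Genes with clone-style names, and all others with a dot or colon in the symbol, were left out of the pattern ranking. Overlaps between genes were found from RefSeq coordinates on GRCz12tu, which served for nothing else. The 9 genes and the lists were chosen with earlier results of these data known. The steps were tested on simulated data with the same dispersion for all genes and changes of a single size in genes with higher counts. Changes in genes with low counts or near the fold threshold were not covered. Alternatives were RLE scaling, DESeq2, no filter on low counts, sample number as a replicate block, for genotype comparisons a fit on the 4 samples compared, and leaving out each sample in turn.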

Additional observations from a re-analysis of the deposited data

Results flagged for a closer look

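The difference between mutant and WT ventricles changed from that in uninjured ventricles for 15 pairs of gene and day. The test was edgeR's interaction term with Benjamini-Hochberg adjustment over all genes tested. Of all genes tested, 34.0%, 23.6% and 35.7% passed the same test at 2, 7 and 21 dpci. Values are the log2 change in the difference of mutant and WT since 0 dpci, and no explanation was tested.

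At 2 dpci the change was 1.24 for mrc1a (adjusted p = 2.6e-05), −1.32 for stab2 (adjusted p = 1.39e-10), −0.917 for stab1 (adjusted p = 5.75e-16), −0.777 for vegfc (adjusted p = 0.00352), −0.726 for lyve1a (adjusted p = 0.0451) and −0.409 for prox1a (adjusted p = 8.14e-06), all from edgeR. At 7 dpci edgeR gave −1.68 for lyve1a (adjusted p = 7.84e-06), −1.28 for stab2 (adjusted p = 4.26e-09), −0.536 for prox1a (adjusted p = 9.31e-09) and −0.427 for stab1 (adjusted p = 1.18e-05). At 21 dpci edgeR gave −1.48 for stab2 (adjusted p = 1.48e-10), −1.02 for vegfd (adjusted p = 0.000436), 0.982 for mrc1a (adjusted p = 0.00161), −0.66 for flt4 (adjusted p = 0.042) and −0.262 for prox1a (adjusted p = 0.00137). The changes of lyve1a at 2 dpci and flt4 at 21 dpci did not pass with DESeq2 (adjusted p = 0.134 and 0.115). With 1 sample left out they ranged from −0.88 to −0.56 and from −0.81 to −0.52, and the call was lost in several of these fits. prox1a and stab2 met the edgeR test on all 3 days after injury, but the 3 tests of a gene share its 0 dpci samples and are not independent. For stab2 the genotype differences after injury were near 0, at −0.01, 0.03 and −0.17 at 2, 7 and 21 dpci. For stab2 and mrc1a the uninjured difference, 1.31 and −0.86, was larger in size than any difference after injury.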

How the results depend on the processing

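With all samples kept, 563 of 576 values of the 9 genes kept their direction and their side of the threshold under RLE scaling, DESeq2, no filter, the replicate block and fits on the compared samples only, and 8 changed side. The number of genes called stayed within 1.5 times in 64 of 64 cases. Only differences near 0 changed direction: flt4 at 7 dpci (−0.0026) was 0.013 with RLE, 0.025 with DESeq2, 0.0082 without the filter and 0.0055 with the replicate block, and the change for stab1 from 0 to 21 dpci was 0.022 without the filter. Sample numbers do not pair samples: over 28 pairs of conditions, same-numbered deviations correlated between −0.031 and 0.032. The block changed no call.

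With 1 sample left out, 579 of 648 values were kept, 43 changed side and 26, none of them called, changed direction. A condition then has 1 sample, assumed to vary like the others. The number of genes called ranged from 1 to 3 at 7 dpci, from 1 to 3 at 21 dpci and from 3 to 6 in WT from 2 to 7 dpci. Genotype differences spanned 0 for flt4 (−0.18 to 0.15) and stab2 (−0.071 to 0.062) at 2 dpci, for flt4 (−0.27 to 0.45), stab1 (−0.14 to 0.056), stab2 (−0.031 to 0.10) and lyve1b (−0.071 to 1.00) at 7 dpci, and for mrc1a (−0.0083 to 0.24) at 21 dpci. So did the changes of lyve1b from 2 to 7 dpci in WT (−0.65 to 0.60), of prox1a (−0.029 to 0.0077), stab1 (−0.050 to 0.034) and vegfc (−0.17 to 0.066) from 0 to 21 dpci in WT, and of lyve1b (−0.81 to 0.51) and stab1 (−0.046 to 0.026) in mutants. The genotype difference's change did so for flt4 from 0 to 7 dpci (−0.028 to 0.69) and for stab1 from 0 to 21 dpci (−0.044 to 0.039). Depth limits lyve1b most.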
